A study of Bactrocera dorsalis with 16 samples.

Results

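Sequences that the table of this study names after miR-2779 were grouped by that number, with any species prefix, arm or end suffix, and entries with the same sequence were summed. This gave 26 distinct sequences from 31 entries, out of 747 sequences from 788 entries in all. Of the 26, 15 end in CCA, the 3 bases that close a mature tRNA, and 11 have another end. The names of 24 carry the prefix bmo (the silkworm Bombyx mori) and those of 2 carry mse (the hawkmoth Manduca sexta), so the names come from moths and not from the fly studied. The data are small RNA libraries of adult females of the oriental fruit fly, Bactrocera dorsalis, a pest of fruit, kept on a yeast extract and sugar diet. Ovary and fat body, the insect organ of storage and yolk protein synthesis, were each sampled at day 1, 5, 9 and 13 after eclosion, with 2 libraries for each tissue and day and 16 libraries in all. No genotype, allele or agent separates the groups, and the labels do not say how many flies a library pools.

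Transfer RNAs carry amino acids to the ribosome, and an enzyme adds the letters CCA to the 3′ end of each tRNA after transcription, so that nothing follows CCA in a mature tRNA. Fragments cut from the T loop to that end are a known class of small RNA, found in insects as in other animals. A miRNA is instead cut from a hairpin by Drosha and Dicer and recognises its targets mainly through its seed near the 5′ end.

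The sequences that carry the results are shown 5′ to 3′ as deposited, as DNA letters, with CCA in capitals wherever it stands at or near the 3′ end. The first set holds the 8 most abundant members that end in CCA, in falling order of mean level. In the names, L-2 marks a sequence 2 bases shorter at its 5′ end than the named miRNA, and 1ss a single base that differs from it.
bmo-miR-2779_L-2: atccggctcgaaggaCCA
bmo-miR-2779_1ss2TA: aaatccggctcgaaggaCCA
bmo-miR-2779_L-1_1ss2TA: aatccggctcgaaggaCCA
bmo-miR-2779_L-2_1ss3AN: ntccggctcgaaggaCCA
bmo-miR-2779_L-1_1ss2TC: catccggctcgaaggaCCA
bmo-miR-2779_L-2_1ss12GT: atccggctctaaggaCCA
bmo-miR-2779_L-2_1ss16GT: atccggctcgaagtaCCA
bmo-miR-2779_L-2_1ss5CT: attcggctcgaaggaCCA
The second set holds the 4 most abundant members with another end, shown because letters follow the CCA in each.
bmo-mir-2779-p3_1ss1CA: acggctcgaaggaCCAtat
bmo-mir-2779-p3_1ss18AG: ccggctcgaaggaCCAtg
bmo-mir-2779-p3_1ss17TA: ccggctcgaaggaCCAaatgt
mse-mir-2779-p5_1ss5CA: aactatatccggctcgaaggaCCAa

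The members were 1 sequence in several forms. The run ggctcgaaggacc stood in 20 of the 26 members and in 0 of the other 721 sequences. The last base of bmo-miR-2779_L-2 was also the last base of 15 members, all those with a CCA end, while 9 members continued past it by up to 5 bases and 2 stopped before it. The 5′ end varied more among the CCA-ending members. If the final A is numbered 76, as in the standard numbering of tRNAs, 11 of the 15 begin at position 59, 2 at position 58, 1 at position 57 and 1 at position 55, all within the T loop of that numbering. The members that begin at position 59 held between 84.2% and 93.5% of the CCA-ending signal of a library, with a median of 90.7%. Position 57 held a median of 4.50% and position 58 a median of 4.67%. With the end fixed at 76, a start at position 59 is a length of 18 bases, the shortest in the table. Later starts could not be seen, so these shares do not show where cutting is most frequent.

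**Figure D1:**
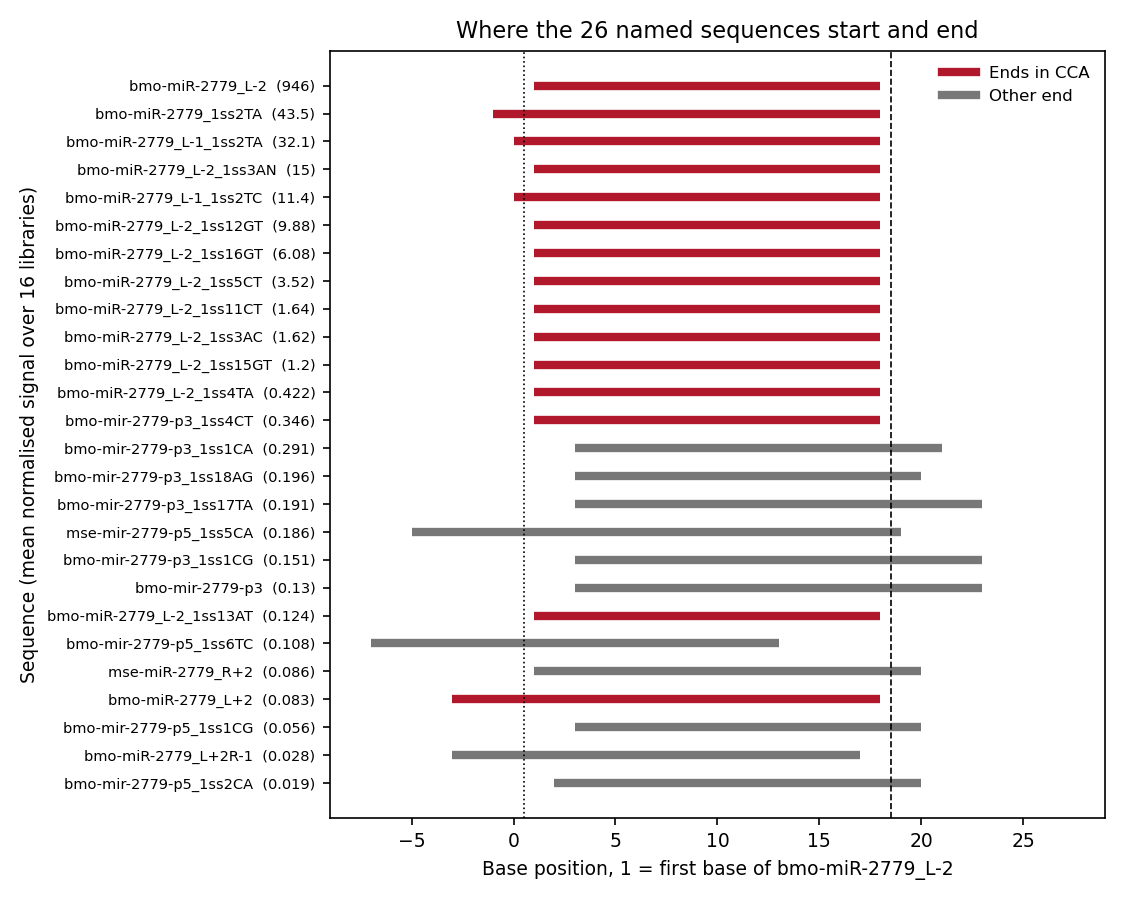
Start and end of each of the 26 sequences, counted in bases from the first base of bmo-miR-2779_L-2, with bars in red for sequences that end in CCA and in grey for the others. Sequences run from the highest mean normalised signal over 16 libraries at the top to the lowest, the dotted line marks the first base of bmo-miR-2779_L-2 and the dashed line its last. The 15 red bars share 1 right end, and 9 of the 11 grey bars pass it.

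The bases 2 to 8, where a miRNA would have its seed, differed among the members. There were 12 distinct versions. The commonest, tccggct, stood in 9 members that held 91.4% of the mean signal of all 26, and in 0 other sequences of the table. The form that begins 1 base earlier, atccggc, stood in 2 members with 4.06%, and aatccgg in 1 member with 4.05%. By contrast with the shared 3′ end, a shift at the 5′ end thus moved the seed of 3 of the 5 most abundant members.

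A CCA end was rare outside the members. It stood in 4 of 721 other sequences (0.555%), against 15 of 26 members (57.7%). The authors' software removed families such as tRNA, so these shares, and the search for a tRNA motif below, cover only what passed that removal. The members are forms of 1 sequence, so the 15 are not separate observations of that end. The 4 were bdo-miR-124, a nerve miRNA whose mean level was 82.2, PC-5p-108889_76 at 9.09, PC-3p-277321_22 at 1.87 and aae-miR-316_1ss22GA at 1.69, where PC marks a sequence predicted by the authors' software. They are shown because they share no more than the end with the members.
bdo-miR-124: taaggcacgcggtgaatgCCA
PC-5p-108889_76: agtcccgtcagtcccgCCA
PC-3p-277321_22: tgttttttgggacagCCA
aae-miR-316_1ss22GA: tgtctttttccgcttactgCCA
The B box of tRNA genes, searched as GGTTCGA and as GGTTCAA on both strands, stood in 0 of 747 sequences. It lies upstream of position 59 in the numbering above. The CCA-ending members begin at position 55 or later, too late to hold all of it, so for them the 0 was fixed in advance. bmo-mir-2779-p5_1ss6TC, which has another end and begins further upstream, holds ggttcat, which differs from GGTTCAA in its last base. Its highest level was 0.89.

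The members were short. Their lengths ran from 18 to 25 bases with a median of 18.5, and 11 of the 15 CCA-ending members had 18 bases, the shortest length in the table. The other 721 sequences ran from 18 to 26 bases with a median of 22, and 85 of them (11.8%) had 18. Shorter pieces of the same end, and pieces longer than 26 bases, were not analysed here. Pairs in which 1 sequence lay wholly within another numbered 8 among members, of which 5 shared the 3′ end and 2 the 5′ end. Among other sequences there were 110 such pairs, of which 27 shared the 3′ end and 79 the 5′ end. Sequences in a pair are not independent, and no test was made.

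Before the levels, the libraries were set against marker miRNAs of ovary (miR-989, miR-318, miR-994), fat body (miR-8, miR-274, miR-252), muscle (miR-1) and nerve (miR-124, miR-137, miR-1000). None of the 10 was at 0 in any library. For the library labelled ovary day 9 replicate 2 the ovary list came to 31433 and the fat body list to 174733, whereas ovary day 9 replicate 1 had 181280 and 68199. For the library labelled fat body day 9 replicate 2 the ovary list came to 189160 and the fat body list to 68767, whereas fat body day 9 replicate 1 had 4356 and 297024. The 2 libraries labelled day 9 replicate 2 thus go against their labels, and results are given with and without them. At day 1 the ovary list was low in ovary libraries too, at 1541 and 1214, beside 154.5 and 436 in fat body. Since it reached 1648 in fat body day 13 replicate 2, its level alone does not place the ovary libraries of day 1. The fat body list at day 1 was 23898 and 38004 in ovary and 155326 and 167300 in fat body. Recovered reads per library, which are the deposited values divided by the worth of 1 read, ran from 193955 to 1865055 and were lowest at day 5 in both tissues.

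Of the members, bmo-miR-2779_L-2 was the most abundant in every library. It held between 72.7% and 89.6% of their summed signal, and stood between place 22 and place 127 among 747 sequences by level. All levels are the authors' normalised signal. In ovary its level was 391 and 59.1 at day 1, 82.9 and 40.7 at day 5, 663 and 824 at day 9, and 561 and 1172 at day 13. In fat body its level was 580.1 and 245 at day 1, 338 and 135 at day 5, 1010.0 and 1303 at day 9, and 2695 and 5032 at day 13. The 2 fat body libraries of day 13 were the highest of the 16 and the 2 ovary libraries of day 5 among the lowest 3. The tissues overlapped at day 1, and at day 5 and 13 both fat body libraries lay above both ovary libraries. At day 9 the libraries labelled replicate 1 held 663 in ovary and 1010.0 in fat body, and those labelled replicate 2, whose markers go against their labels, held 824 and 1303, so the order of the tissues at that day is not settled by these values for any member. The highest recovered read number behind a level was 4143 and the lowest 36.

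**Figure D2:**
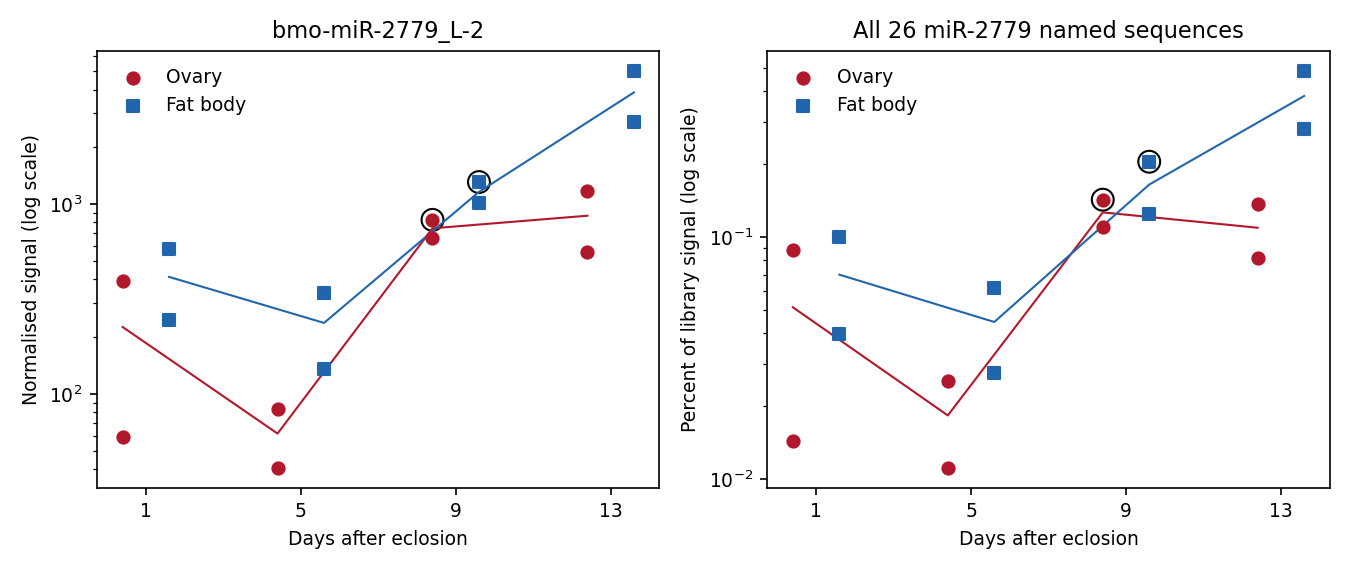
Level of bmo-miR-2779_L-2 (left, normalised signal, log axis) and of all 26 sequences as a percent of the library's summed signal (right, log axis) against day after eclosion, with 1 point for each library, red circles for ovary, blue squares for fat body and lines through the means of 2. Black rings mark the libraries labelled day 9 replicate 2. Both panels are lowest at day 5 and highest in fat body at day 13, at 2695 and 5032 on the left.

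As a share of all deposited signal the 26 sequences were minor. They held 0.0143% to 0.0882% in ovary at day 1, 0.0111% to 0.0255% at day 5, 0.110% to 0.143% at day 9 and 0.0816% to 0.137% at day 13. In fat body they held 0.0398% to 0.1% at day 1, 0.0274% to 0.0617% at day 5, 0.125% to 0.205% at day 9 and 0.279% to 0.488% at day 13. The CCA-ending members made up between 97.0% and 100% of the members' signal. Their sum averaged 545.9 ± 460.3 in ovary and 1599.7 ± 1873 in fat body (SD, n = 8 each), spreads that cover the days.

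By group mean, the more abundant forms that begin further upstream were also highest at day 13 in both tissues. bmo-miR-2779_L+2, which begins at position 55, reached at most 0.67, in the library labelled ovary day 9 replicate 2. bmo-miR-2779_1ss2TA, of 20 bases, had in ovary 20.1 and 4.42 at day 1, 6.90 and 2.26 at day 5, 33.7 and 26.8 at day 9, and 40.9 and 60.6 at day 13. In fat body it had 34.7 and 9.74 at day 1, 36.8 and 12.3 at day 5, 36.1 and 48.0 at day 9, and 119 and 204 at day 13. At day 5 and 13 both fat body libraries lay above both ovary libraries, at day 1 they overlapped, and in fat body day 5 was not below day 1.

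bmo-miR-2779_L-1_1ss2TA, of 19 bases, had in ovary 20.8 and 5.42 at day 1, 4.60 and 1.14 at day 5, 26.8 and 28.1 at day 9, and 22.9 and 50.6 at day 13. In fat body it had 27.2 and 10.6 at day 1, 12.3 and 9.20 at day 5, 46.2 and 50.2 at day 9, and 84.8 and 113 at day 13. Here too the tissues overlapped at day 1 and were apart at day 5 and 13. bmo-miR-2779_L-1_1ss2TC, which begins with c in place of a, had in ovary 2.88 and 0.98 at day 1, 0 and 1.14 at day 5, 9.36 and 6.70 at day 9, and 9.68 and 10.8 at day 13. In fat body it had 8.46 and 0 at day 1, 6.14 and 6.14 at day 5, 20.2 and 12.0 at day 9, and 40.1 and 48.6 at day 13. At day 1 the tissues overlapped, at day 5 and 13 the fat body libraries were the higher, and the fat body mean of day 1 was not above that of day 5.

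Sequences of 18 bases that differ from bmo-miR-2779_L-2 by 1 base numbered 10. In tokens that give the base of bmo-miR-2779_L-2, its position from the 5′ end and the base of the other sequence, the most abundant were A1N, G10T, G14T and C3T. A1N, an unread first base, belongs to bmo-miR-2779_L-2_1ss3AN, which had in ovary 4.31 and 0.98 at day 1, 1.15 and 0.57 at day 5, 8.42 and 9.38 at day 9, and 10.6 and 15.8 at day 13. In fat body it had 9.79 and 1.77 at day 1, 6.14 and 1.53 at day 5, 14.5 and 19.6 at day 9, and 37.7 and 97.8 at day 13. An N is a base the sequencer did not call, so this sequence need not be a molecule apart from bmo-miR-2779_L-2.

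G10T, in bmo-miR-2779_L-2_1ss12GT, ran from 1.14 to 13.4 with a median of 7.05 in ovary and from 3.06 to 42.5 with a median of 7.79 in fat body. G14T, in bmo-miR-2779_L-2_1ss16GT, ran from 0.36 to 6.81 with a median of 1.61 in ovary and from 0 to 44.9 with a median of 5.20 in fat body. C3T, in bmo-miR-2779_L-2_1ss5CT, ran from 0 to 4.37 with a median of 3.54 in ovary and from 0 to 19.4 with a median of 1.34 in fat body. The highest value of each was in fat body day 13 replicate 2, as it was for 12 of the 15 CCA-ending members.

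**Figure D3:**
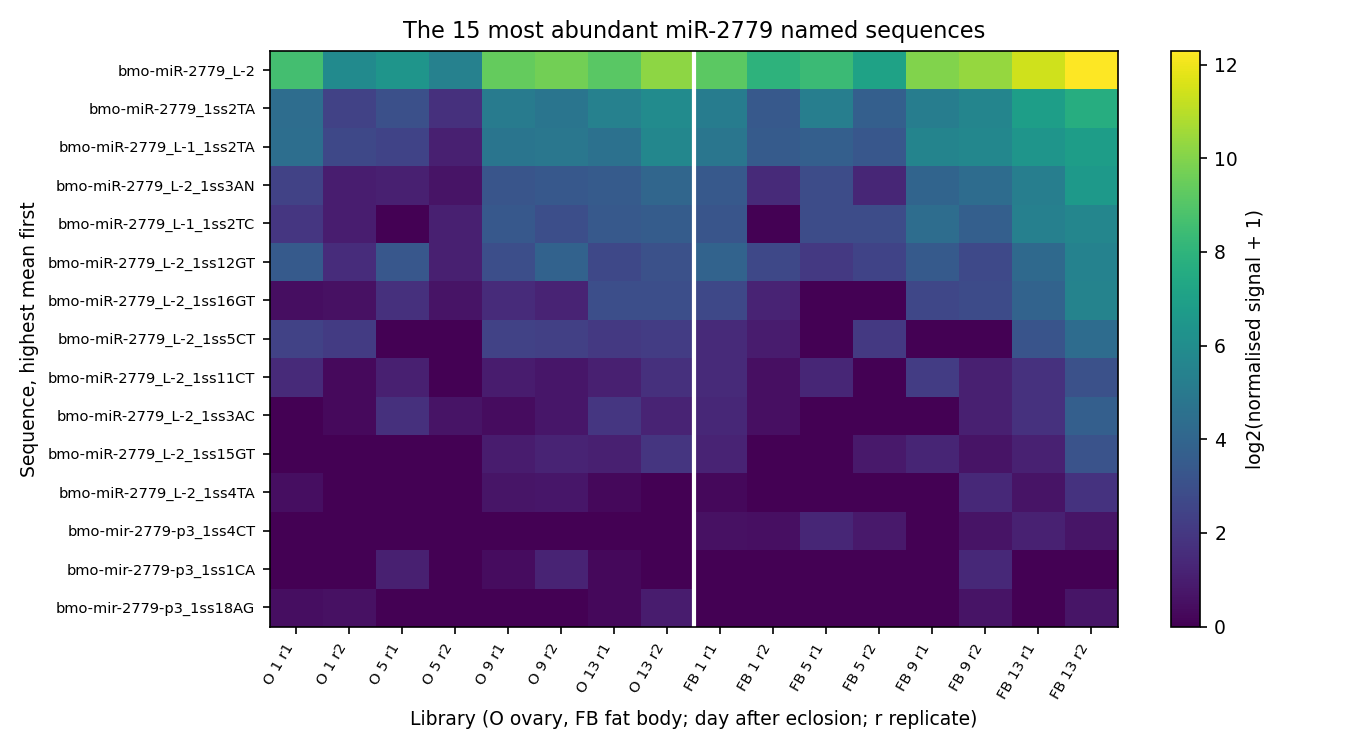
Level of the 15 most abundant members (rows, highest mean at the top) in each of the 16 libraries (columns, ovary left of the white line and fat body right of it), as log2(normalised signal + 1) on the colour scale. The first row stands far above the rest, and the last 2 columns, fat body day 13, are the brightest.

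The make-up of the group moved less than its level. Members that begin upstream of position 59 summed to between 7.56% and 18.3% of the level of bmo-miR-2779_L-2 in ovary, with a median of 11.2%, and to between 7.27% and 20.5% in fat body, with a median of 9.60%. In fat body this share was highest at day 5, at 16.4% and 20.5%, and at most 12.1% on other days. Those day 5 values rest on 110 and 88 recovered reads of bmo-miR-2779_L-2. In ovary day 5 had 13.9% and 11.1%, within the range of the other days. Members with 1 base changed summed to between 3.40% and 19.4% in ovary, with a median of 5.47%, and to between 2.76% and 9.10% in fat body, with a median of 3.98%. The highest of these, 19.4%, was in ovary day 5 replicate 1, the library with the fewest recovered reads. The unread first base was the steadiest, at a median of 1.37% in ovary and 1.47% in fat body, and between 0.721% and 1.94% over all libraries. G10T had a median of 2.10% in ovary and 0.954% in fat body.

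**Figure D4:**
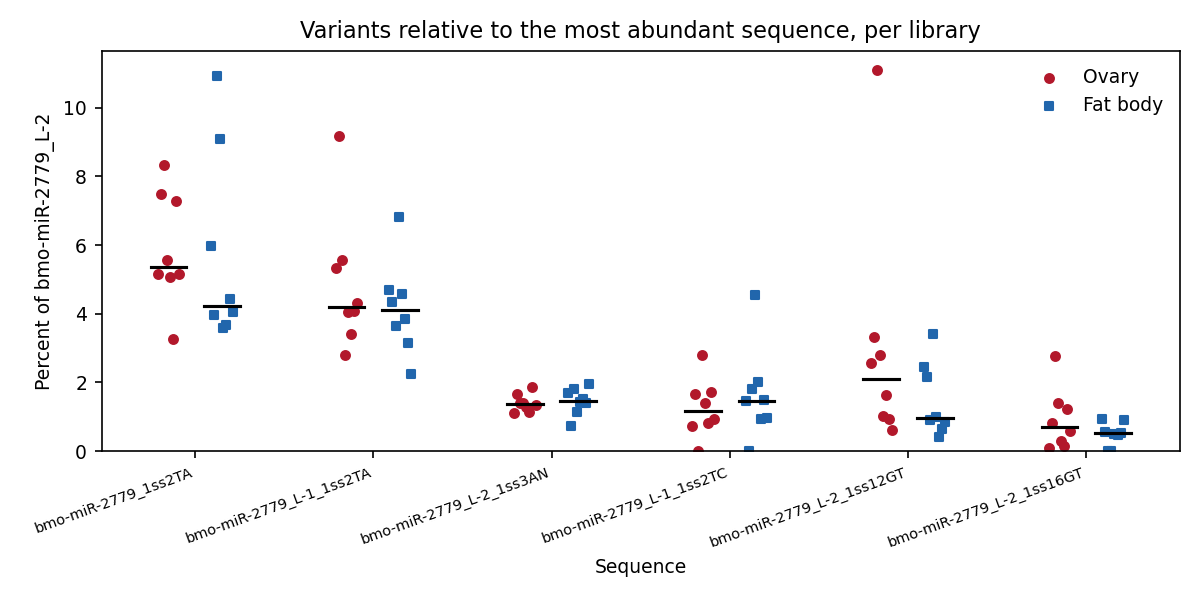
Level of 6 members as a percent of bmo-miR-2779_L-2 in the same library, with 1 point for each of 8 ovary libraries (red circles, left) and 8 fat body libraries (blue squares, right) and a black line at each median. The tissues overlap for all 6, and the highest point, 11.1%, is bmo-miR-2779_L-2_1ss12GT in an ovary library.

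The 11 members with another end were near the limit of detection. Their highest single value was 2.30, and their sum per library ran from 0 to 3.45 with a median of 2.56 in ovary and from 0 to 4.38 with a median of 0.225 in fat body. This is 21.0 recovered reads over the 8 ovary libraries and 7.0 over the 8 fat body libraries, against 5771.0 and 11428.6 for the CCA-ending members. bmo-mir-2779-p3_1ss1CA was above 0 in 5 libraries, bmo-mir-2779-p3_1ss18AG in 6, bmo-mir-2779-p3_1ss17TA in 4 and mse-mir-2779-p5_1ss5CA in 2, all with means under 0.3. None reached the level at which a sequence was tested, so their tissue and day pattern was not detectable at this depth.

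Tests were made with limma on log2(signal + 1), where a sequence had at least 10 in at least 2 libraries, with p-values adjusted by the Benjamini-Hochberg method over all 321 sequences tested. Of the 26 members 7 were tested, all with a CCA end, and 19 were not. bmo-miR-2779_L-2_1ss16GT was tested only because of its fat body libraries of day 13, and the other 6 would pass without them. It had to be high there, so main counts that involve fat body at day 13 are given over the 6 alone. Counts for the interaction, with libraries left out or with other settings are over all tested members. Where fat body at day 13 enters, calls of bmo-miR-2779_L-2_1ss16GT follow in part from the filter. The labels do not say whether the libraries of a pair came from separate flies, so p-values measure only the spread between these libraries. In bulk tissue, fewer cells of a type and less RNA per cell cannot be told apart.

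Over the mean of the 4 days, 5 of the 6 members were called lower in ovary than in fat body and 0 higher, where 37.1% of all tested sequences were called in either direction and 12.5% lower. All 6 had a log2 change below 0, with a median of -1.26, beside 0.20 for all tested sequences. bmo-miR-2779_L-2 had a log2 change of -1.49 (SE 0.41, adjusted p = 0.016, limma), which is 2.82-fold lower in ovary. The others called were bmo-miR-2779_1ss2TA at -1.27 (adjusted p = 0.0334), bmo-miR-2779_L-1_1ss2TA at -1.16 (adjusted p = 0.0331), bmo-miR-2779_L-2_1ss3AN at -1.24 (adjusted p = 0.0373) and bmo-miR-2779_L-1_1ss2TC at -1.33 (adjusted p = 0.0373). The log2 change was -0.62 for bmo-miR-2779_L-2_1ss12GT (SE 0.46) and -0.83 for bmo-miR-2779_L-2_1ss16GT (SE 0.38), neither called. The members share most of their letters and follow 1 another, so 5 calls are not 5 separate pieces of evidence.

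Leaving out the libraries labelled day 9 replicate 2 kept the change of bmo-miR-2779_L-2 at -1.49 (adjusted p = 0.0232) and left 3 members called. It was called in 16 of 16 fits that each left out 1 library, with log2 changes from -1.83 to -1.16. The count of members was less steady. It was 1 without ovary day 1 replicate 2, ovary day 9 replicate 1, ovary day 13 replicate 1, fat body day 1 replicate 1, fat body day 5 replicate 1 or fat body day 13 replicate 2, 2 without ovary day 5 replicate 2, and 3 without ovary day 5 replicate 1, ovary day 13 replicate 2 or fat body day 13 replicate 1. With each library scaled to its total the change was -1.11 (adjusted p = 0.0497) and 1 member was called. The split of all called sequences into higher and lower in ovary was 79 and 40 as deposited, 104 and 19 with library totals and 58 and 53 with quantile normalisation.

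At single days bmo-miR-2779_L-2 had its largest difference at day 13, a log2 change of -2.18 (SE 0.82, adjusted p = 0.0463, limma), 4.54-fold lower in ovary. This sequence was the 1 member of 6 called at that day, where 44.9% of all tested sequences were called. Both fat body libraries lay above both ovary libraries for all 6, as they did for 34.3% of all tested sequences. With quantile normalisation its change was 8.80-fold. The split of all called sequences into higher and lower in ovary was 98 and 46 as deposited and 72 and 82 with quantile normalisation. The call is fragile. The adjusted p was 0.052 without the libraries labelled day 9 replicate 2, and 0.237 and 0.211 without ovary day 13 replicate 1 and fat body day 13 replicate 2. It was 0.0549 and 0.0566 without ovary day 5 replicate 1 and 2, 0.0611 without ovary day 13 replicate 2, 0.0529 and 0.0525 without fat body day 1 replicate 1 and 2, 0.0512 and 0.051 without fat body day 5 replicate 1 and 2, and 0.0777 without fat body day 13 replicate 1. The number of members called at day 13 was 2 without fat body day 9 replicate 1 or the fat body library labelled day 9 replicate 2, and 0 without any 1 library of day 5 or day 13. At day 1 the log2 change was -1.30 (SE 0.82), at day 5 -1.86 (SE 0.82) and at day 9 -0.63 (SE 0.82), with adjusted p of 0.518, 0.173 and 0.994. At day 1, 5 and 9 limma and edgeR called 0 members, where limma called 3.12%, 2.18% and 0% of all tested sequences, so these counts say little about the members. At an unadjusted p under 0.05 limma had 0, 4 and 0 of the 7 members at these days, beside 48, 81 and 1 of all 321 tested. Without the libraries labelled day 9 replicate 2, which leaves 1 library for each tissue, assumed to vary like the other groups, the change at day 9 was -0.61 (SE 1.21, adjusted p = 0.732, limma).

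Within ovary, a joint test over the 4 days called 3 of the 7 members, where 27.1% of all tested sequences were called. They were bmo-miR-2779_L-2 (adjusted p = 0.00799), bmo-miR-2779_1ss2TA (adjusted p = 0.0339) and bmo-miR-2779_L-1_1ss2TA (adjusted p = 0.018). From day 5 to day 13 the level of bmo-miR-2779_L-2 rose 13.7-fold, a log2 change of 3.78 (SE 0.82, adjusted p = 0.0044, limma). The fold was 6.81 with library totals, 5.76 with quantile normalisation and 8.82 with edgeR, each still called. Of the 7 members 5 were called higher at day 13 than at day 5, where 26.8% of all tested sequences were called in either direction, and the median log2 change was 2.94 over the 7 and 0.62 over all. The split of all called sequences into higher and lower at day 13 was 59 and 27 as deposited, 39 and 65 with library totals and 41 and 61 with quantile normalisation. The step from day 5 to day 9 held most of it, with a log2 change of 3.65 (SE 0.82, adjusted p = 0.0134), beside 0.13 (SE 0.82, adjusted p = 0.928) from day 9 to day 13. Without the library labelled ovary day 9 replicate 2 and its fat body counterpart, they were 3.49 (SE 1.05, adjusted p = 0.0345) and 0.29 (SE 1.05, adjusted p = 0.964). bmo-miR-2779_L-2_1ss12GT, with the G10T change, had 0.62 (SE 0.92) between day 5 and day 13 in ovary, and -0.18 with library totals and with edgeR.

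The joint test in ovary called 1 member without ovary day 5 replicate 2 or ovary day 13 replicate 2, 5 without fat body day 9 replicate 1 or the fat body library labelled day 9 replicate 2, and 4 without both libraries labelled day 9 replicate 2. bmo-miR-2779_L-2 was called in 16 of 16 fits that each left out 1 library. For day 13 against day 5 the number called was 0 without either ovary day 5 replicate 2 or ovary day 13 replicate 2, where bmo-miR-2779_L-2 had an adjusted p of 0.0503 and 0.0541, and 3 without ovary day 5 replicate 1 or ovary day 13 replicate 1. Day 5 also had the fewest recovered reads, 193955 and 383751 in ovary, and its part in the low levels was not tested.

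Within fat body, the joint test over days called 4 of the 6 members, where 16.5% of all tested sequences were called. bmo-miR-2779_L-2 had an adjusted p of 0.0275, which was 0.0554 with library totals, and bmo-miR-2779_1ss2TA (0.0678) and bmo-miR-2779_L-2_1ss12GT (0.19) were not called. Between day 5 and day 13 bmo-miR-2779_L-2 rose 17.2-fold, a log2 change of 4.10 (SE 0.82, adjusted p = 0.00992, limma) that was 9.93-fold with library totals, and against day 1 it was 9.73-fold higher, a log2 change of 3.28 (SE 0.82, adjusted p = 0.044). Day 13 against day 5 had 3 of 6 members called higher, where 9.66% of all tested sequences were called, and day 13 against day 1 had 3 of 6 called higher, where 6.85% were called. In edgeR, day 13 against day 5 called 4 of the 7 members, where 16 of 321 sequences were called. Day 13 against day 1 called 0 of the 7 in edgeR, and its number over all sequences is not given here. No result with libraries left out is given for day 13 against day 1. The median log2 change from day 5 to day 13 was 2.95 over the 6 and 0.18 over all. The split of all called sequences into higher and lower at day 13 against day 5 was 23 and 8 as deposited and 13 and 16 with library totals. bmo-miR-2779_L-2_1ss16GT was at 0 in both fat body libraries of day 5 and at 14.1 and 44.9 in those of day 13, the libraries through which it was tested.

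These calls rest on few libraries. Counted over all 7 tested members, of which it called 5, the joint test in fat body called 0 members without either fat body library of day 13, 1 when either fat body day 1 replicate 2 or fat body day 5 replicate 2 was dropped, 2 without fat body day 5 replicate 1, and 3 without ovary day 5 replicate 1, the library labelled ovary day 9 replicate 2, ovary day 13 replicate 1 or ovary day 13 replicate 2. bmo-miR-2779_L-2 had an adjusted p of 0.101 and 0.0581 in this test without fat body day 13 replicate 2 and 1, of 0.0619 without fat body day 1 replicate 2 and of 0.0569 without fat body day 5 replicate 2. For day 13 against day 5 it rose 27.1-fold without fat body day 5 replicate 1 (adjusted p = 0.0317), where 3 of the 7 members were called, against 4 with all libraries. It was 10.9-fold with an adjusted p of 0.0718 without fat body day 5 replicate 2, and its adjusted p was 0.0677 without fat body day 13 replicate 1 and 0.0915 without fat body day 13 replicate 2. Of the members, 1 was then called without fat body day 5 replicate 2 and 0 of 6 tested without either library of day 13. Without the libraries labelled day 9 replicate 2, the joint test called 5 and the contrast of day 13 with day 5 called 5.

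**Figure D5:**
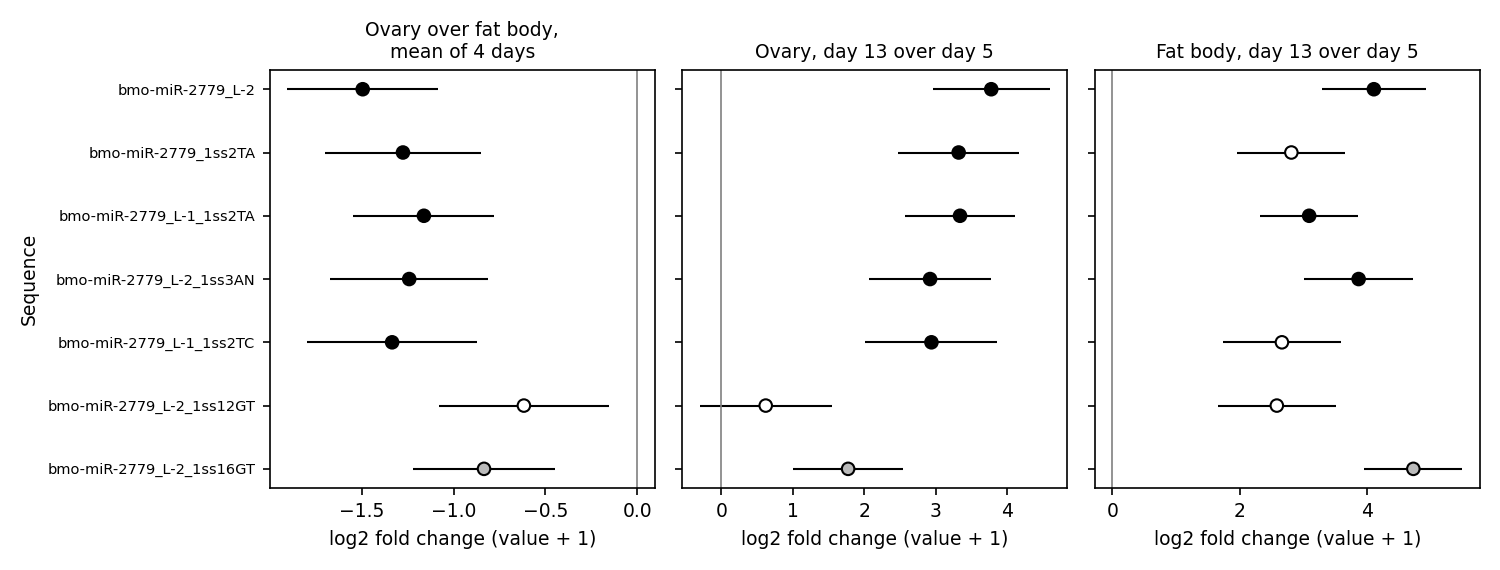
Fitted log2 change with its standard error for the 7 tested members, as ovary over fat body (left) and as day 13 over day 5 in ovary (middle) and in fat body (right). Black points have an adjusted p under 0.05 in limma, open points do not, the grey point is the member tested only through fat body day 13, and the grey line marks 0. The 7 points lie below 0 on the left and above 0 in the middle and on the right.

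The course over days was not shown to differ between the tissues. The interaction of tissue and day called 0 of the 7 members, where 11.2% of all tested sequences were called. At an unadjusted p under 0.05 limma had 0 members, beside 78 of all 321 tested sequences. In edgeR on recovered reads it called 0 members and 0 sequences in all. For bmo-miR-2779_L-2 the rise from day 5 to day 13 in ovary minus that in fat body was -0.32 on the log2 scale (SE 1.16), an error that leaves room for differences of some size either way. That contrast had an unadjusted p under 0.05 for 1 of the 7, bmo-miR-2779_L-2_1ss16GT, at -2.94 (SE 1.08, adjusted p = 0.0921), which was tested through fat body day 13. Of all 321 tested sequences, 90 had an unadjusted p under 0.05 there.

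The members moved together. Over the 16 libraries, Pearson's r of log2(signal + 1) with bmo-miR-2779_L-2 was 0.982 for bmo-miR-2779_L-1_1ss2TA, 0.974 for bmo-miR-2779_L-2_1ss3AN, 0.968 for bmo-miR-2779_1ss2TA, 0.868 for bmo-miR-2779_L-1_1ss2TC and 0.787 for both bmo-miR-2779_L-2_1ss12GT and bmo-miR-2779_L-2_1ss16GT. The points share libraries, depth and scaling. Among the tested sequences with other names the likest were PC-5p-161891_44 (r = 0.866), bdo-mir-308-p3 (0.823), PC-5p-1954_8537 (0.814), bdo-miR-14 (0.808) and dme-let-7-3p_1ss9TC (0.795). The first 3 of these are 18 bases long, as bmo-miR-2779_L-2 is.

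Length was therefore examined, as a description chosen after these values were seen. Of the other tested sequences 28 had 18 bases and 286 had 19 to 26. From day 5 to day 13 in fat body the median log2 change was 1.44 over the 28 and 0.07 over the 286, with 7 and 12 called higher and 3 and 5 called lower. In ovary it was -0.23 over the 28 and 0.61 over the 286, with 2 and 52 called higher and 8 and 19 called lower. Over the mean of days the ovary over fat body change had a median of -0.19 over the 28 and 0.33 over the 286. At day 13 that median was -1.60 over the 28 and 0.58 over the 286, with 2 and 96 called higher and 3 and 42 called lower in ovary. The joint test over days called 35.7% of the 28 and 13.3% of the 286 in fat body, and 32.1% and 26.2% in ovary. The part of length, and with it of breakdown of longer RNA, in the members' levels was not tested.

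Muscle miR-1 ran from 3961 to 43277 with a median of 21655 in ovary and from 8762 to 89872 with a median of 45884 in fat body. It was highest in fat body at day 13, as bmo-miR-2779_L-2 was. In ovary miR-1 went the other way, from 21733 and 21577 at day 5 to 3961 and 4780 at day 13, days between which bmo-miR-2779_L-2 rose. The nerve list summed to between 50.6 and 725 with a median of 305 in ovary and to between 112 and 1073 with a median of 561 in fat body. Their part in the tissue difference was not tested.

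Some low values of the members were not whole reads. Values that were not whole multiples of 1 read within a tolerance of 0.1 made up 54.8% for the 21 members with 1 entry and 42.0% for the 5 with 2 entries. They made up 4.37% for other sequences with 1 entry and 54.7% for others with more. How such values arose, and whether they understate a level, was not tested. Which tRNA or hairpin the sequences come from was not assigned here, since no tRNA sequence or genome was used.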

How the data were processed

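Small RNA was measured in 16 libraries, 2 for each of 2 tissues and 4 days, grouped by the labels, although the series text counts fewer samples. Per the labels, Trizol RNA went into TruSeq small RNA libraries, and the authors' ACGT101-miR software removed adapter dimers, low complexity reads, repeats and families such as tRNA, so members are what passed that removal. The authors deposited a normalised signal per sequence, per the file headers. The scaling method, like aligner and build, is not given in the sources used here. Low values were 98.1% to 100.0% multiples of 1 read or of a fraction of it (tolerance 0.1), which gave recovered reads, used only in an alternative. The number of reads limits low values, and reads carry no molecular identifier.

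Repeated entries, 41 with identical values, were summed. limma 3.58.1 in R 4.3.3 fitted 8 group means to log2(signal + 1) with an intensity trend, on 8 residual and 4.91 prior degrees of freedom, for sequences of at least 10 in at least 2 libraries, with a threshold of 0.05 on the adjusted p. Alternatives covered pseudocount, filter, scaling, single entries, replicate block, left-out libraries and edgeR 4.0.16 on recovered reads, which called 96 sequences in the tissue mean. The method was tested on simulated data. Values were given for the 8 most abundant members with a CCA end and the 4 most abundant others, with other CCA-ending sequences, the 5 likest others and marker lists beside them. Members and lists were chosen with earlier results of these data known. Replicate numbers were not used as pairs in the main fit. Deviations of replicates correlated above 0.1 in 9 of 28 pairs of groups, with r from -0.753 to 0.362. The libraries labelled day 9 replicate 2 are among them, and these values do not settle whether replicates were paired.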

Additional observations from a re-analysis of the deposited data

How the results depend on the processing

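Counts here are over the 7 tested members unless stated, bmo-miR-2779_L-2_1ss16GT among them. Its calls in counts that involve fat body at day 13 follow in part from the filter. Over the mean of days, no setting reversed the direction of a member. In ovary, day 13 over day 5, bmo-miR-2779_L-2_1ss12GT had 0.62, against -0.18 with library totals and with edgeR. Over the mean of days, 5 members were called, and this became 3 with a pseudocount of 0.1, 2 with no filter (26 tested), 3 with a filter at 50 (3 tested), 1 with library totals and 3 without both libraries labelled day 9 replicate 2. Leaving out 1 library gave 1 to 5. The joint test over days in ovary went to 1 with library totals and 1 with edgeR, and to 1 to 5 with 1 library left out. In fat body it went to 3 with a pseudocount of 0.1, 2 with a filter at 50, 1 with library totals, 3 with quantile normalisation and 3 with edgeR, and to 0 to 6 with 1 library left out. At day 13 the 1 call became 7 with a pseudocount of 10, 0 with library totals, 7 with quantile normalisation and 5 with edgeR, and 0 to 2 with 1 library left out. At day 13, 144 of the 321 sequences tested were called as deposited. The number was 150 with a pseudocount of 10, 135 with library totals, 154 with quantile normalisation and 141 with edgeR. The replicate block treats libraries of 1 replicate number as matched, which the data do not settle. With it the joint test in fat body called 3 members and 37 sequences in all. Day 13 then called 0 members and 130 sequences in all. The interaction called 0 members in every setting. Over the mean of days, 119 of 321 sequences were called as deposited, 113 with a pseudocount of 0.1 and 123 with library totals. The joint test in ovary called 87 as deposited, 111 with library totals and 76 with edgeR. In fat body it called 53 as deposited, 55 with a pseudocount of 0.1 and 41 with library totals. It called 60 there with quantile normalisation and 71 with edgeR. The cause of these shifts was not tested.

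Library totals moved the median log2 change of all sequences, ovary over fat body, to 0.56, against 0.20 as deposited, so member changes are relative to that shift. Fewer sequences are tested under a filter at 50, where 84 of 186 were called over the mean of days. The joint test in fat body called 42 of those 186. With no filter 121 of 747 were called over the mean of days. With 1 library left out, the mean of the CCA-ending sum was 433.3 to 617 in ovary and 1023.6 to 1803.2 in fat body. Leaving out 1 library cannot move such a mean by as much as its SD, so these ranges are only a description.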
